A study of Homo sapiens with 21 samples.

Results

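This account follows 10 genes that help set whether a stressed cell survives or dies by apoptosis, in a human cell line given coumarin at 6 doses. The genes were taken by name from the deposited count table: PMAIP1, BBC3, BCL2L11, BID, BAX, BAK1, BCL2L1, MCL1, TNFRSF10A and TNFRSF10B. Each name matched 1 row, so 10 of the 58735 genes of the table were used, and all 10 were among the 16196 genes with enough reads to be tested. By their known roles 8 of these members promote death, and BCL2L1 and MCL1 promote survival.

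In the intrinsic pathway, BAX and BAK1 form pores in the outer mitochondrial membrane, which release cytochrome c and start the caspase cascade. Pro-survival proteins such as BCL-XL (from BCL2L1) and MCL1 hold these effectors in check, and the BH3-only proteins NOXA (PMAIP1), PUMA (BBC3), BIM (BCL2L11) and BID release or activate them. In the extrinsic pathway, the ligand TRAIL binds the receptors encoded by TNFRSF10A and TNFRSF10B on the cell surface, and BID, once cut by caspase 8, carries that signal to mitochondria. Hepatocytes are known for depending on this mitochondrial arm when a death receptor is engaged.

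The samples were 21 poly(A)-selected RNA libraries from cells labelled HepG2, a human liver cancer line. They fall into 7 groups of 3 libraries, which the design text calls biological replicates: an untreated control (0 µM) and coumarin at 0.001, 0.01, 0.1, 1, 10 and 100 µM, all for 6 h. Coumarin, a plant benzopyrone, was dissolved in culture medium, and every group, the control included, spent the 6 h in serum-free medium and was detached with trypsin. The sample labels do not say whether the 3 libraries of a group came from separate cultures, and if they did not, the p-values measure only the spread between these libraries, which may be technical. The libraries held 27984517 to 43704155 gene counts, and 3 counts correspond to 0.0686 to 0.107 CPM (counts per 1000000 counts of the library). Mitochondrially encoded genes took 5.61% to 6.63% of the counts. Hepatocyte markers went against the label: none of 10 reached a median of 1 CPM, ALB, SERPINA1 and FGB had no read in any library, and the summed level of the 10 was 0 to 0.150 CPM. In bulk RNA, fewer cells expressing a gene and less RNA per cell cannot be told apart.

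At 100 µM, 4 pro-death members rose and 1 pro-survival member fell against the untreated cells. The rises were in PMAIP1, BBC3, BCL2L11 and the receptor gene TNFRSF10B, and the fall was in BCL2L1. PMAIP1 moved most of the 10, to 1.83 times its control level. The effectors BAX and BAK1, the BH3-only gene BID, the pro-survival gene MCL1 and the receptor gene TNFRSF10A did not pass the test. Calls rest on edgeR's quasi-likelihood test over all 16196 genes with a Benjamini-Hochberg adjusted p under 0.05, and 8.58% of the genes tested were called in this comparison, 3.77% higher and 4.82% lower. The count of 5 members became 2 without untreated replicate 1 (PMAIP1 and TNFRSF10B) and 2 without 100 µM replicate 3 (PMAIP1 and BCL2L1).

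The promoters of the 3 BH3-only genes that rose, and of the pro-survival gene that fell, are shown before the values because the results turn on these 4 members. The sequences are RefSeq's on GRCh38.p14, limited to bases upstream of the RefSeq start that lie in no annotated exon, written in the direction of transcription, with capitals for the letters of a searched motif. PMAIP1 lies on chromosome 18, from 59899948 to 59904306 on the plus strand. Its 202 bases, chr18:59899746-59899947, hold the ATF/CREB core TGACGT as its reverse complement, starting at position -56 from the RefSeq start. BBC3 lies on chromosome 19, from 47220822 to 47232766 on the minus strand, and its 151 bases, chr19:47232767-47232917 on that strand, hold the E-box CACGTG at position -232. BCL2L11 lies on chromosome 2, from 111119378 to 111168447 on the plus strand. Its 250 bases, chr2:111120664-111120913, hold the forkhead core GTAAACA at position -223; they lie inside the gene as the count table places it and upstream of the RefSeq start. BCL2L1 lies on chromosome 20, from 31664452 to 31723989 on the minus strand, and its 224 bases, chr20:31723990-31724213 on that strand, hold none of the motifs searched. A second RefSeq start of BCL2L1, at 31722868, had no upstream base outside annotated exons and is not printed.
PMAIP1: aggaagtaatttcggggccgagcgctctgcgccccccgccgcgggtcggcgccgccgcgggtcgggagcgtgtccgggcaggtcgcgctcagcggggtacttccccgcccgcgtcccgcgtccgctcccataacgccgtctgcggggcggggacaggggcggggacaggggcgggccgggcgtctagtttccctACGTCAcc
BBC3: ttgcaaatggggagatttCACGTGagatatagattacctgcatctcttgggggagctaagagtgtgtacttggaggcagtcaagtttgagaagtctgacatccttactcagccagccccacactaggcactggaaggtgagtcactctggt
BCL2L11: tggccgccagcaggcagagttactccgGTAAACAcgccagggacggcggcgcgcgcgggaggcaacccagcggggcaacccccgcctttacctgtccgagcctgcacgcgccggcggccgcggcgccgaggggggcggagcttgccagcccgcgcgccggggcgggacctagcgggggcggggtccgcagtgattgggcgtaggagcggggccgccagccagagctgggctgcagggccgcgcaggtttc
BCL2L1: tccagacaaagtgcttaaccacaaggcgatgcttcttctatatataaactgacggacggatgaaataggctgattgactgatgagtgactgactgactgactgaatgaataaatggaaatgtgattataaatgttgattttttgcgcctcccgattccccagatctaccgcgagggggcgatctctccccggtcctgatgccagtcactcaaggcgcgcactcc
The motifs were searched on both strands in 34943 RefSeq promoter windows, each from 250 bases before a gene's start to just after it. TGACGT was in 7.97% of the windows, CACGTG in 7.23%, GTAAACA in 3.42% and the ATF4-C/EBP composite TGATGNAA in 3.62%. For 7 members 12 windows were used, and MCL1 had no entry. Among the members not printed, CACGTG was in windows of BAX and BID, and no window of these 7 members held TGATGNAA. Each match describes letters in a window and is not a binding site or a cause.

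**Figure D1:**
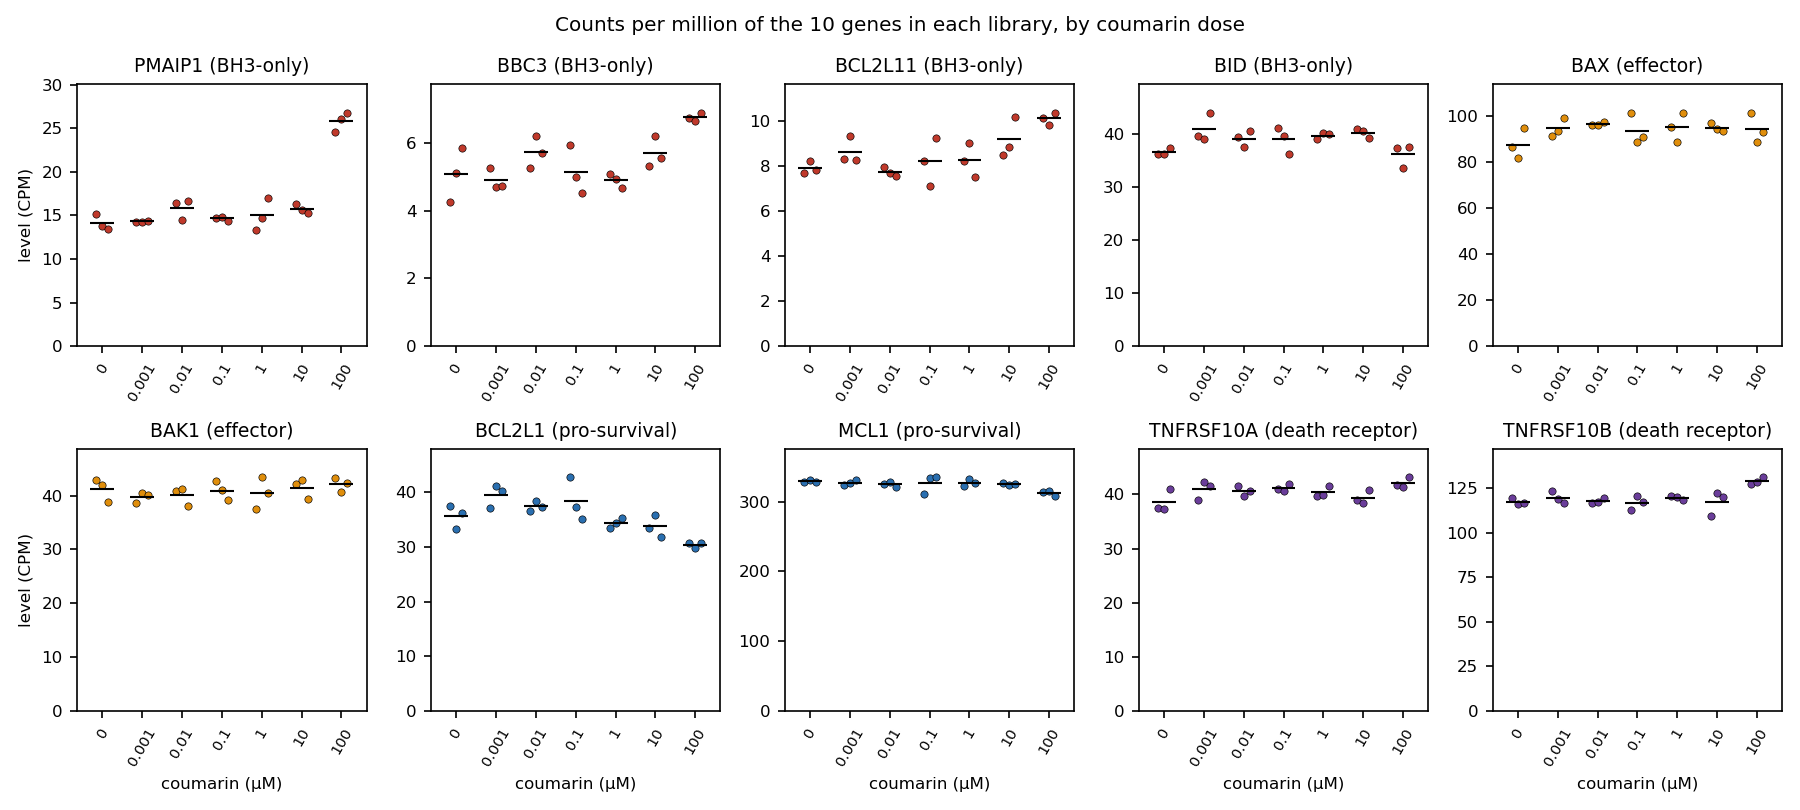
Level of each of the 10 genes in CPM (vertical axes, from 0) in the 21 libraries against coumarin dose (horizontal axes, µM, evenly spaced), where points are libraries and bars are group means. PMAIP1 lies between 13.3 and 17.0 CPM up to 10 µM and at 24.6 to 26.8 CPM at 100 µM, while BCL2L1 is lowest at 100 µM, at 29.8 to 30.8 CPM.

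PMAIP1 encodes NOXA, a BH3-only protein that binds MCL1 in preference to BCL-XL. Its 3 untreated libraries stood at 15.1, 13.8 and 13.4 CPM, those at 10 µM at 16.4, 15.7 and 15.3 CPM, and those at 100 µM at 24.6, 26.1 and 26.8 CPM. All libraries at 100 µM lay above every library of the other doses, the highest of which was at 17.0 CPM in 1 µM replicate 3. The log2 fold change at 100 µM was 0.87 (SE 0.07, 95% interval 0.73 to 1.02, adjusted p = 1.02e-10 by edgeR's quasi-likelihood test), which ranked 17 of 16196 genes by p and 165 from the top by size. At 10 µM the log2 fold change was 0.16 (95% interval 0.01 to 0.31, adjusted p = 0.387). The step from 10 to 100 µM was itself called, at 0.71 on the log2 scale (SE 0.07, adjusted p = 1.71e-08).

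BBC3 encodes PUMA, which binds BCL-XL and MCL1 alike. It was at 4.24, 5.11 and 5.86 CPM in untreated cells, 5.31, 6.20 and 5.56 CPM at 10 µM, and 6.73, 6.65 and 6.90 CPM at 100 µM. The 100 µM libraries were close together and lay above every library of the other doses, whereas the untreated libraries were widely spread. Only 145 to 237 reads per library stood behind these values. The log2 fold change at 100 µM was 0.42 (SE 0.11, 95% interval 0.19 to 0.65, adjusted p = 0.0162). Without untreated replicate 1, the lowest library of all, it was 0.30 (adjusted p = 0.153), and without 100 µM replicate 3 it was 0.40 (adjusted p = 0.0588).

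BCL2L11 encodes BIM, a BH3-only protein that also activates BAX directly. Untreated libraries were at 7.71, 8.23 and 7.83 CPM, the 10 µM libraries at 8.51, 8.86 and 10.2 CPM, and the 100 µM libraries at 10.2, 9.84 and 10.4 CPM. The 100 µM group lay wholly above the untreated group, and 1 library at 10 µM reached its range. The log2 fold change was 0.36 at 100 µM (SE 0.09, 95% interval 0.17 to 0.54, adjusted p = 0.0124) and 0.22 at 10 µM (95% interval 0.03 to 0.41, adjusted p = 0.327). Without untreated replicate 1 the adjusted p at 100 µM was 0.0551, and without 100 µM replicate 3 it was 0.0538. The noncoding gene MIR4435-2HG overlaps BCL2L11 on the other strand, with 8323 reads over all libraries against 6272 for BCL2L11. The strand setting of the counting is not given in the sources used here, so reads of these overlapping genes may not have been told apart.

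BID encodes the BH3-only protein that links death receptors to mitochondria, and it gave no call at any dose. Its untreated libraries were at 36.2, 36.3 and 37.3 CPM, and those at 100 µM overlapped them at 37.4, 33.6 and 37.5 CPM. In between, the group means ran from 39.0 to 40.9 CPM at 0.001 to 10 µM, above the untreated mean of 36.6 ± 0.651 CPM (SD, n = 3). The log2 fold change was 0.16 at 0.001 µM (95% interval 0.05 to 0.27, adjusted p = 0.574), 0.14 at 10 µM (adjusted p = 0.289) and -0.02 at 100 µM (95% interval -0.13 to 0.09, adjusted p = 0.887). Whether the change of BID differed from those of PMAIP1, BBC3 and BCL2L11 was not tested.

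The effector genes BAX and BAK1, whose products form the mitochondrial pore, did not pass the test at any dose. BAX was at 86.4, 81.8 and 94.7 CPM in untreated cells and at 102, 88.9 and 93.1 CPM at 100 µM, with a log2 fold change of 0.11 (95% interval -0.00 to 0.22, adjusted p = 0.238). Its treated groups had means of 93.7 to 96.6 CPM against 87.6 ± 6.50 CPM (SD, n = 3) in untreated cells, with no order by dose. BAK1 was at 42.9, 42.0 and 38.8 CPM untreated and at 43.2, 40.7 and 42.3 CPM at 100 µM, with a log2 fold change of 0.03 (95% interval -0.08 to 0.14, adjusted p = 0.804). Untreated and 100 µM libraries overlapped for both genes.

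BCL2L1 encodes BCL-XL, the pro-survival protein that restrains BAX and BAK1 and binds BIM and PUMA. Untreated libraries were at 37.6, 33.3 and 36.2 CPM, those at 0.001 µM at 37.2, 41.2 and 40.3 CPM, those at 10 µM at 33.5, 35.9 and 31.8 CPM, and those at 100 µM at 30.8, 29.8 and 30.7 CPM. The 100 µM libraries were the 3 lowest of the 21, and the group mean was highest at 0.001 µM, at 39.6 ± 2.11 CPM, and lowest at 100 µM, at 30.4 ± 0.522 CPM. The log2 fold change at 100 µM was -0.23 (SE 0.06, 95% interval -0.36 to -0.11, adjusted p = 0.0128). Without untreated replicate 1 it was -0.19 (adjusted p = 0.113), and without 100 µM replicate 2 it was -0.21 (adjusted p = 0.0621). On the other strand BCL2L1 overlaps ABALON, with 514 reads over all libraries, and AL117381.1, with 22.

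MCL1 encodes a short-lived pro-survival protein, the preferred partner of NOXA. It was at 328, 332 and 328 CPM in untreated cells, 326, 324 and 326 CPM at 10 µM, and 314, 316 and 308 CPM at 100 µM. The 100 µM libraries lay wholly below the untreated ones, and a 0.1 µM library, at 311 CPM, was as low as they were. The log2 fold change at 100 µM was -0.08 (SE 0.03, 95% interval -0.14 to -0.01) and did not pass the test over all genes (adjusted p = 0.159).

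TNFRSF10B and TNFRSF10A encode TRAIL receptors with a death domain. TNFRSF10B was at 119, 116 and 116 CPM in untreated cells, 110, 122 and 120 CPM at 10 µM, and 128, 129 and 131 CPM at 100 µM. Its 100 µM libraries were the 3 highest of the 21, and its log2 fold change was 0.14 (SE 0.04, 95% interval 0.06 to 0.22, adjusted p = 0.0221) against the control. That call was lost without untreated replicate 2 (adjusted p = 0.0895) and without 100 µM replicate 3 (adjusted p = 0.0935). TNFRSF10A was at 37.5, 37.2 and 41.0 CPM untreated and at 41.8, 41.3 and 43.1 CPM at 100 µM. These groups did not overlap, and the log2 fold change was 0.13 (95% interval 0.03 to 0.22) with an adjusted p of 0.0947, or 0.18 with an adjusted p of 0.0239 without untreated replicate 3. On the other strand RHOBTB2 overlaps TNFRSF10B with 26464 reads over all libraries, and AC100861.1 and TNFRSF10A-AS1 overlap TNFRSF10A with 2946 and 1903, so both receptor values carry the same uncertainty as BCL2L11.

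**Figure D2:**
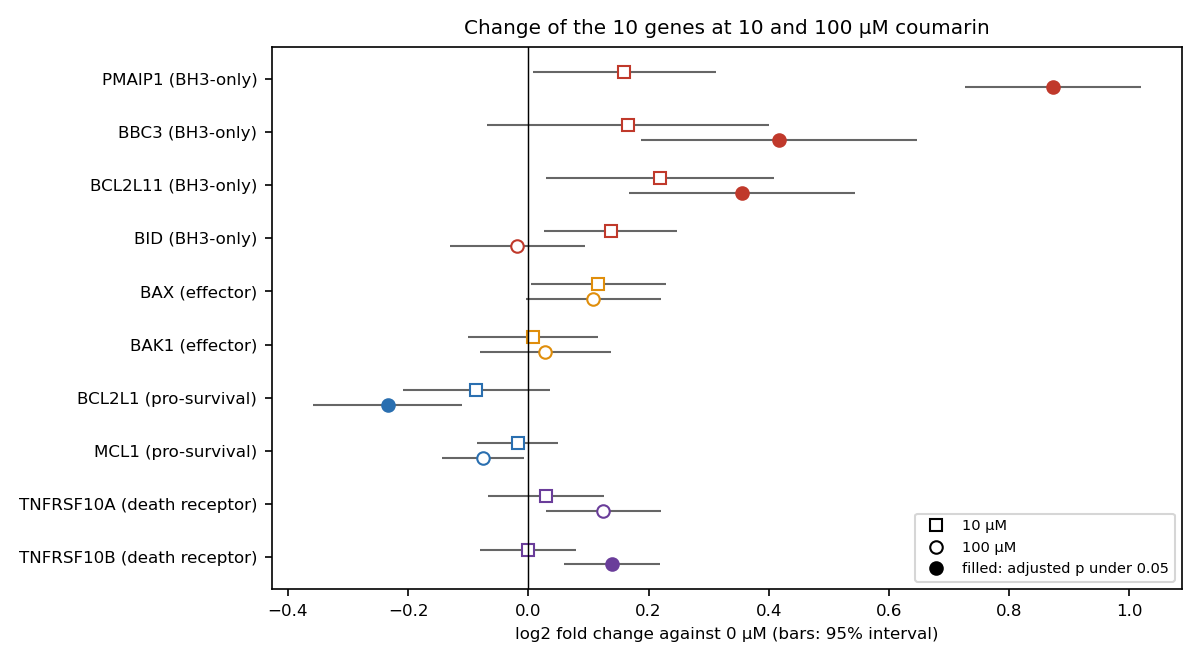
Log2 fold change of the 10 genes against 0 µM (horizontal axis) at 10 µM (squares) and 100 µM (circles), with 95% intervals as bars and filled symbols where the adjusted p was under 0.05. There are 5 filled circles, PMAIP1 farthest right at 0.87 and BCL2L1 farthest left at -0.23, and no filled square.

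The lower doses asked where along the series the members began to move. At 10 µM none of the 10 was called by edgeR, DESeq2 or limma, where edgeR called 0.321% of all genes. Before adjustment 4 had an edgeR p under 0.05, BCL2L11, BID, PMAIP1 and BAX, against 12% of all genes. PMAIP1, BCL2L11 and BID lay above the untreated libraries without overlap and MCL1 below, where 8.78% of all genes lay above and 7.9% below. At 0.001, 0.01, 0.1 and 1 µM no member was called by edgeR, and none of the 16196 genes was. At 0.001 µM 2 members had an unadjusted p under 0.05 (8.21% of all genes), at 0.01 µM 2 (8.74%), at 0.1 µM 0 (6.09%) and at 1 µM 2 (3.76%). All these comparisons share the 3 untreated libraries, so a control library that is high or low moves every dose together.

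Comparisons that leave out the control were made for that reason. Between 100 and 10 µM, PMAIP1 and TNFRSF10B were called, the latter at 0.14 on the log2 scale (SE 0.04, adjusted p = 0.0342), where 4.53% of all genes were called and 2.03% were called higher. BID and BCL2L1 were lower by 0.16 and 0.15 on the log2 scale without passing the test (adjusted p = 0.0978 and 0.174). TNFRSF10B lost this call without 10 µM replicate 1 or 3 or any 1 of the 100 µM libraries, which left PMAIP1 as the 1 call. Over the 6 treated doses together, edgeR's quasi-likelihood F-test called PMAIP1 (adjusted p = 7.77e-11), BCL2L1 (0.000277) and BBC3 (0.0357), where 4.43% of all genes were called. Per 10-fold step in dose from 0.001 to 100 µM, the slope of log2 level was 0.12 for PMAIP1 (adjusted p = 8.19e-09), 0.06 for BBC3 (0.0449), 0.05 for BCL2L11 (0.0338) and -0.07 for BCL2L1 (8.9e-06), where 4.45% of all genes had a called slope, 1.93% upward and 2.52% downward. The other 6 members had slopes between -0.02 and 0.02 and no call. A slope does not tell a graded change from a step at the highest dose. The group means of PMAIP1 were 14.3 to 15.9 CPM from 0.001 to 10 µM and 25.8 CPM at 100 µM. Those of BBC3 were 4.90 to 5.72 CPM and 6.76 CPM.

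The group means of BCL2L1 were 39.6, 37.4, 38.4, 34.4, 33.7 and 30.4 CPM from 0.001 to 100 µM. Its slope and that of PMAIP1 were the 2 still called of the 4 without 0.001 µM replicate 3, 0.01 µM replicate 3, 10 µM replicate 3 or any 1 of the 100 µM libraries. Over all 7 groups 4 members were called, PMAIP1 (adjusted p = 6.39e-11), BCL2L1 (0.000532), BBC3 (0.0407) and BCL2L11 (0.0491), where 4.65% of all genes were. This count too became 2, PMAIP1 and BCL2L1, without untreated replicate 2, 0.001 µM replicate 2, 0.01 µM replicate 2 or 3, 10 µM replicate 3 or any 1 of the 100 µM libraries.

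The members were next set against each other by role. At 100 µM 7 of 8 pro-death members had a positive log2 fold change, 4 of them called. Both pro-survival members had a negative one, 1 of them called. Among all 16196 genes tested, 8181 had a positive log2 fold change, 3.77% were called higher and 4.82% lower. The median log2 fold change was 0.13 over the pro-death and -0.15 over the pro-survival members, against 0.00 over all genes tested and 0.12 over the 10. As a value per library, the median log2 deviation of the 8 from the untreated mean, less that of the 2, was -0.05 to 0.03 in untreated cells, -0.04 to 0.05 at 0.001 µM, -0.02 to 0.10 at 0.01 µM, -0.01 to 0.01 at 0.1 µM, 0.07 to 0.10 at 1 µM, 0.14 to 0.19 at 10 µM and 0.28 to 0.32 at 100 µM. The 100 µM libraries were highest and did not overlap those at 10 µM. At 100 µM, 5 members lay above the untreated libraries without overlap, PMAIP1, BBC3, BCL2L11, TNFRSF10A and TNFRSF10B, and 2 below, BCL2L1 and MCL1. Of all genes, 13.1% lay above and 13.9% below. Outside the members, the median log2 fold change was 0.01 over 4 other BH3-only genes and 0.01 over 2 other pro-survival genes.

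**Figure D3:**
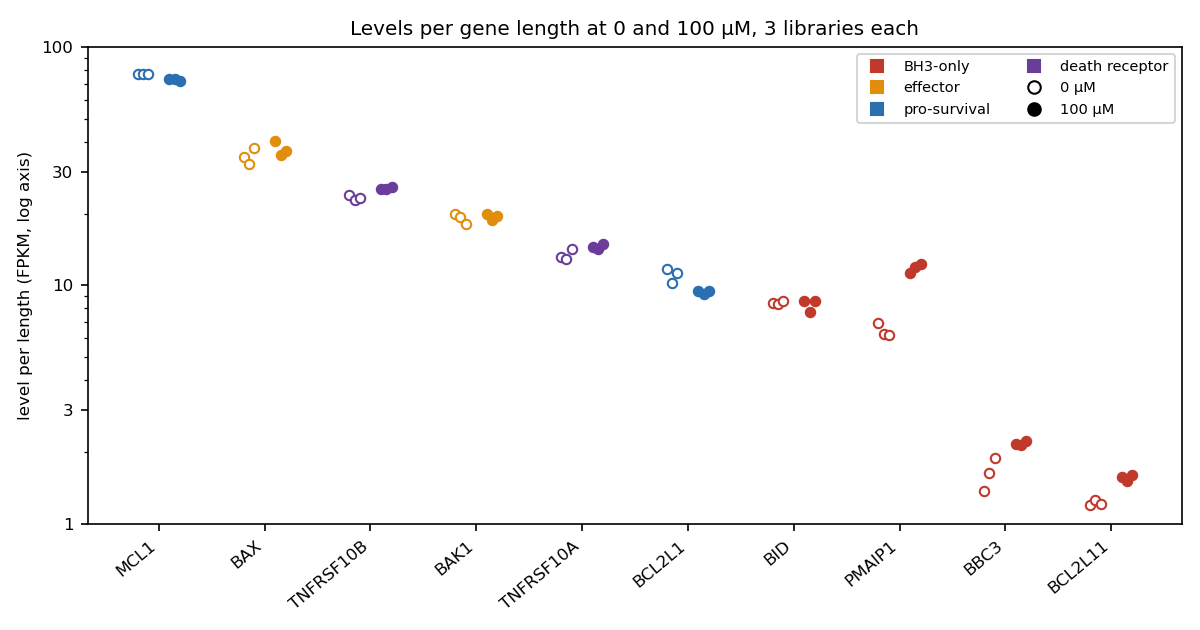
Level per gene length (FPKM, log axis) of the 10 genes in the 3 untreated (open) and 3 100 µM (filled) libraries, ordered by untreated mean and coloured by role. MCL1 is highest at 71.9 to 77.4 FPKM, BCL2L11 lowest at 1.20 to 1.59 FPKM, and PMAIP1 lies below BCL2L1 untreated and above it at 100 µM.

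Levels of different genes can be compared only per length, for which the deposited FPKM were used. In untreated cells the mean levels were, from the highest, 77.2 FPKM for MCL1, 34.7 for BAX, 23.3 for TNFRSF10B, 19.1 for BAK1, 13.4 for TNFRSF10A, 11.1 for BCL2L1, 8.44 for BID, 6.47 for PMAIP1, 1.63 for BBC3 and 1.22 for BCL2L11. No pair of neighbours in this order had overlapping libraries. The most abundant transcript of the 10 was thus that of a pro-survival gene, and the 4 BH3-only genes held the lowest places. At 100 µM PMAIP1, at 11.3 to 12.3 FPKM, stood above BCL2L1, at 9.17 to 9.51 FPKM, and above BID, at 7.70 to 8.62 FPKM, and so moved from the eighth to the sixth place while the order of the other 9 stayed as it was. The file gives 1 length per gene, so levels per length of genes with several isoforms, such as BCL2L11 and BCL2L1, depend on that length.

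Summed FPKM put numbers on these proportions. The 4 BH3-only genes together amounted to 20.1, 20.0 and 20.3 FPKM per 100 FPKM of BCL2L1 and MCL1 in the untreated libraries, 23.0, 22.9 and 22.6 at 10 µM, and 28.4, 28.1 and 30.3 at 100 µM. The ranges were 20.7 to 21.7 at 0.001 µM, 20.7 to 23.0 at 0.01 µM, 20.0 to 22.5 at 0.1 µM and 20.9 to 22.5 at 1 µM. The 100 µM libraries lay above all others, while the 10 µM libraries lay within the range reached at 0.01 µM. PMAIP1 made up 36.4% ± 2.26 (SD, n = 3) of the BH3-only sum in untreated cells and 49.5% ± 1.75 at 100 µM. Against its partner, PMAIP1 was at 8.38 ± 0.560 FPKM per 100 FPKM of MCL1 in untreated cells, 9.56 ± 0.831 at 0.01 µM, 9.49 ± 0.302 at 10 µM and 16.2 ± 0.866 at 100 µM. MCL1 was 87.5% ± 0.732 of the pro-survival sum in untreated cells and 88.6% ± 0.280 at 100 µM, and that sum was 88.3 ± 0.776 and 82.4 ± 0.939 FPKM. BAX and BAK1 together were at 61.0 ± 2.00 FPKM per 100 of the pro-survival sum untreated and at 68.9 ± 3.77 at 100 µM. The group means of this ratio were 62.8 to 65.6 from 0.001 to 10 µM. Its 100 µM libraries, at 65.0 to 72.5, overlapped those at 10 µM, at 64.3 to 66.7. Neither effector passed the test. The sums hold only members, so other expressed genes of both roles are left out of these shares. Among those left out, BAD, a BH3-only gene, was at 10.5 FPKM untreated and 10.2 FPKM at 100 µM. The pro-survival genes BCL2L2 and BCL2 were at 7.30 and 1.58 FPKM untreated, and at 7.53 and 1.53 FPKM at 100 µM. On the other strand GPR137 overlaps BAD, with 13097 reads over all libraries against 12822 for BAD. HOMEZ and PPP1R3E overlap BCL2L2, with 5351 and 5498 against 21831. The values of BAD and BCL2L2 thus share the strand uncertainty. The shares and ratios are proportions of transcripts, and no protein was measured.

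**Figure D4:**
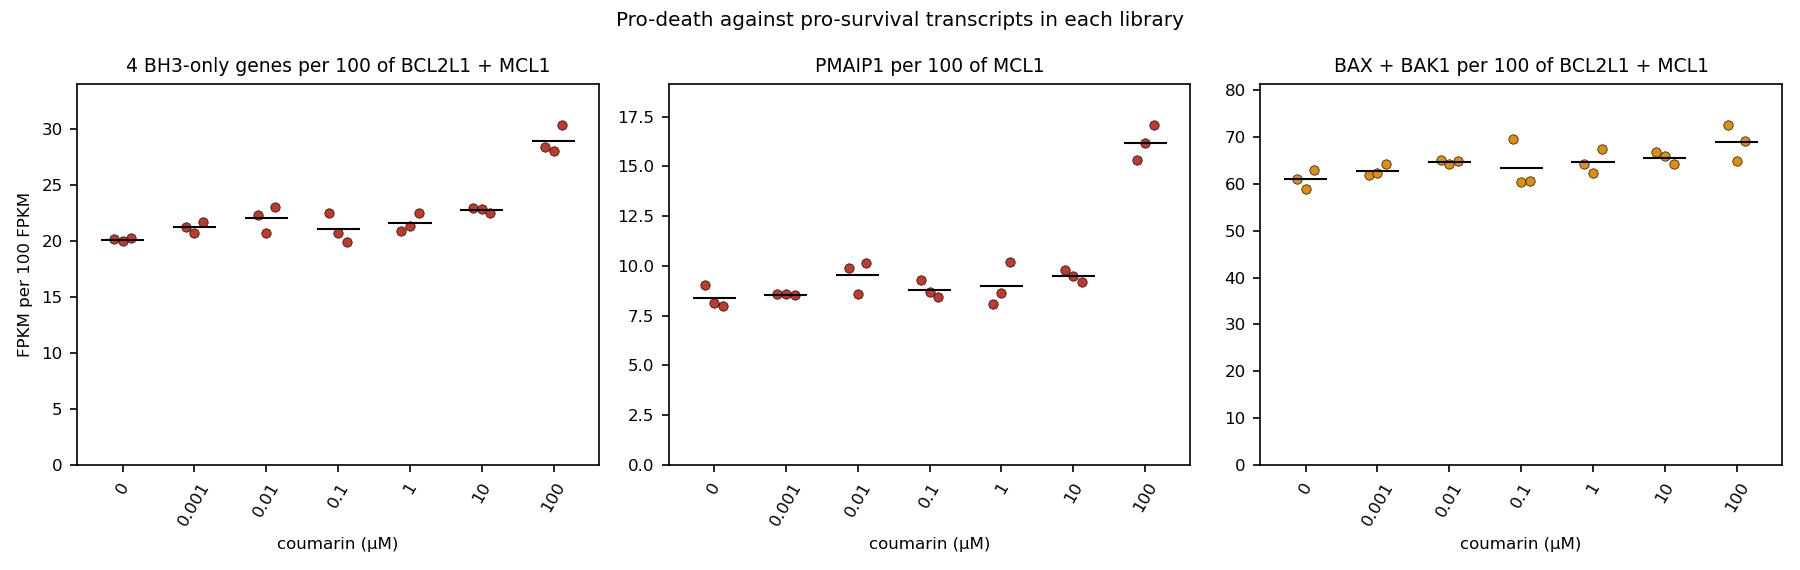
FPKM of pro-death members per 100 FPKM of pro-survival members (vertical axes, from 0) in each library against coumarin dose (horizontal axes, µM, evenly spaced), where points are libraries and bars are group means. In the left panel the untreated libraries lie at 20.0 to 20.3 and those at 100 µM at 28.1 to 30.3, in the middle panel the means are 8.38 and 16.2, and in the right panel, for BAX and BAK1, they are 61.0 and 68.9.

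Pairs of members were compared over the 21 libraries, with and without the highest dose. The Pearson correlation of log2 CPM between PMAIP1 and BBC3 was 0.65 over 21 libraries and 0.03 with the 100 µM libraries left out. For PMAIP1 and TNFRSF10B it was 0.71 and -0.15, for PMAIP1 and BCL2L1 -0.65 and -0.07, and for PMAIP1 and MCL1 -0.71 and -0.21. The size of each of these 4 correlations was thus smaller without the 100 µM libraries. The pair farthest from 0, BBC3 and MCL1, was at -0.73 and -0.49, and BAX and MCL1 were at -0.40 and -0.57. BAX and BID were also no closer to 0 without them, with 0.54 and 0.64, as were BAX and TNFRSF10A, with 0.51 and 0.60. These values are descriptions, since the libraries share groups and each pair of values shares a library and its depth.

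Genes outside the 10 with the most similar pattern to the members called across the 7 groups were found by Pearson correlation over the 21 libraries among 11630 genes. For PMAIP1 they were ADM2 (0.96), PSAT1 (0.95), CHAC1 (0.95), TRIB3 (0.95) and GDF15 (0.95). For BBC3 they were FAM102A (0.87), PYGO2 (0.84), ATXN2L (0.83), SLC1A5 (0.82) and GBAP1 (0.82), and for BCL2L11 ZFAND3 (0.84), FAM86B3P (0.79), ZFAS1 (0.76), STK35 (0.75) and STC2 (0.75). BCL2L1 was most like KRT7 (0.89), ANKRD2 (0.89), ST3GAL4 (0.88), KRT8 (0.87) and EHD1 (0.87). These correlations take in the 100 µM libraries and were not computed without them. The genes named for PMAIP1 rose at 100 µM by 0.40 (PSAT1) to 2.88 (CHAC1) on the log2 scale. A rise there follows largely from choosing them by correlation with PMAIP1, so it is no separate result. KRT7 and KRT8 are keratins of simple epithelium, and the summed level of 6 simple-epithelium markers was 4293 to 4563 CPM in untreated cells and 4056 to 4210.5 CPM at 100 µM. Of those 6, 3 reached a median of 1 CPM and 1 had no read in any library. The summed level of 7 mesenchymal markers was 1389.5 to 1432 CPM untreated and 1319.8 to 1377 CPM at 100 µM, and that of 3 endothelial markers 1.11 to 1.23 and 0.590 to 0.887 CPM. Neither KRT7 (-0.06, adjusted p = 0.43) nor KRT8 (-0.10, adjusted p = 0.0973) was called at 100 µM, and the part of these markers in the change of BCL2L1 was not tested.

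Other genes of the apoptosis machinery were counted in the same fit. Of 53 such genes 45 were tested at 100 µM, 1 rose, 3 fell and 41 were not called, with a median log2 fold change of -0.02, a count near the 8.58% called among all genes. TRADD, an adaptor of the TNF receptor, rose from 11.5 ± 1.77 to 13.9 ± 0.403 CPM, a log2 difference of 0.27 (adjusted p = 0.0489), with FBXL8 overlapping it on the other strand. TNFRSF10D, a TRAIL receptor whose truncated death domain makes it a decoy, fell from 38.9 ± 1.13 to 34.0 ± 0.814 CPM, a log2 difference of -0.20 (SE 0.04, adjusted p = 0.00392), opposite in sign to TNFRSF10B. BIRC3, an inhibitor of apoptosis protein and ubiquitin ligase, fell from 59.8 ± 4.59 to 49.4 ± 2.97 CPM, a log2 difference of -0.27 (adjusted p = 0.0236). BIRC6, a very large protein of the same family, fell from 118 ± 2.09 to 97.7 ± 5.34 CPM, again a log2 difference of -0.27 (adjusted p = 0.00427). From 0.001 to 10 µM the group means of BIRC6 were already lower than untreated, at 103 to 112 CPM. Those of TRADD were already higher, at 12.8 to 13.1 CPM. Over the same doses the means were 58.1 to 63.5 CPM for BIRC3 and 39.2 to 40.7 CPM for TNFRSF10D. The count of 4 became 2, TNFRSF10D and BIRC6, without untreated replicate 2, 100 µM replicate 1 or 100 µM replicate 3. The F-test over the 6 treated doses, which leaves out the control, called 2 of the 45, BIRC3 and TNFRSF10D, and not BIRC6. It called 4.43% of all genes.

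None of 4 other BH3-only genes was called, among them BAD at -0.04 (95% interval -0.19 to 0.12), and BIK and BMF were under 1 CPM with wide intervals, -1.13 to 1.10 and -0.48 to 0.57. Of 4 other pro-survival genes BCL2 (-0.04, 95% interval -0.17 to 0.09) and BCL2L2 (0.05, -0.06 to 0.17) were tested and not called, and BCL2A1 and BCL2L10 had 3 reads and 1 read over all libraries. FAS (0.03, -0.15 to 0.21) and TNFRSF1A (0.03, -0.06 to 0.12), the receptors for FAS ligand and TNF, were not called. TNFSF10, which encodes TRAIL, had 26 reads over all libraries and FASLG none, and TNF, at 221 reads, passed the filter and was not called. Downstream, CASP8 (-0.02, -0.14 to 0.10), its inhibitor CFLAR (-0.02, -0.12 to 0.08) and the caspase inhibitor XIAP (-0.12, -0.22 to -0.01) were not called at 100 µM, with adjusted p of 0.858, 0.856 and 0.174. Over the treated doses TNFRSF10D had a called slope of -0.03 per 10-fold step and BIRC2 one of 0.03, BIRC2 being named after its value was seen. TNFRSF10D was the 1 gene of the 45 called across the 7 groups (adjusted p = 0.00163), where 4.65% of all genes were called.

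Transcription regulators known to act on these genes were counted separately. Of 15 such regulators and their reporter genes 14 were tested and 11 rose at 100 µM, where 3.77% of all genes rose, with a median log2 fold change of 0.40. The list was chosen with earlier results of these data known. Of the integrated stress response, ATF4 rose from 378 ± 17.9 to 476 ± 6.37 CPM (0.34 on the log2 scale, adjusted p = 5.4e-07) and DDIT3, which encodes CHOP, from 8.93 ± 0.754 to 18.1 ± 0.599 CPM (1.01, adjusted p = 2.92e-11). CHAC1, a glutathione-degrading enzyme used as a reporter of that response, rose by 2.88, ATF3 by 1.77, TRIB3 by 0.80 and CEBPB by 0.70 on the log2 scale. JUN rose by 0.71 and MYC by 0.26. CDKN1A, a cell cycle inhibitor, rose by 0.43 (adjusted p = 3.71e-05), whereas the ubiquitin ligase gene MDM2 was at -0.07 (95% interval -0.19 to 0.04, adjusted p = 0.452). FOXO3, a forkhead regulator of BCL2L11, rose from 24.5 ± 1.44 to 31.7 ± 1.22 CPM (0.37 on the log2 scale, adjusted p = 1.45e-05). At 10 µM CHAC1 was the 1 gene of the 14 called (0.79, adjusted p = 8.33e-05). No member was called at that dose, and whether CHAC1 and the members differed there was not tested. MARS overlaps DDIT3 on the other strand, so that value shares the strand uncertainty. The part of these regulators in the changes of PMAIP1, BBC3, BCL2L11 and BCL2L1 was not tested.

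**Figure D5:**
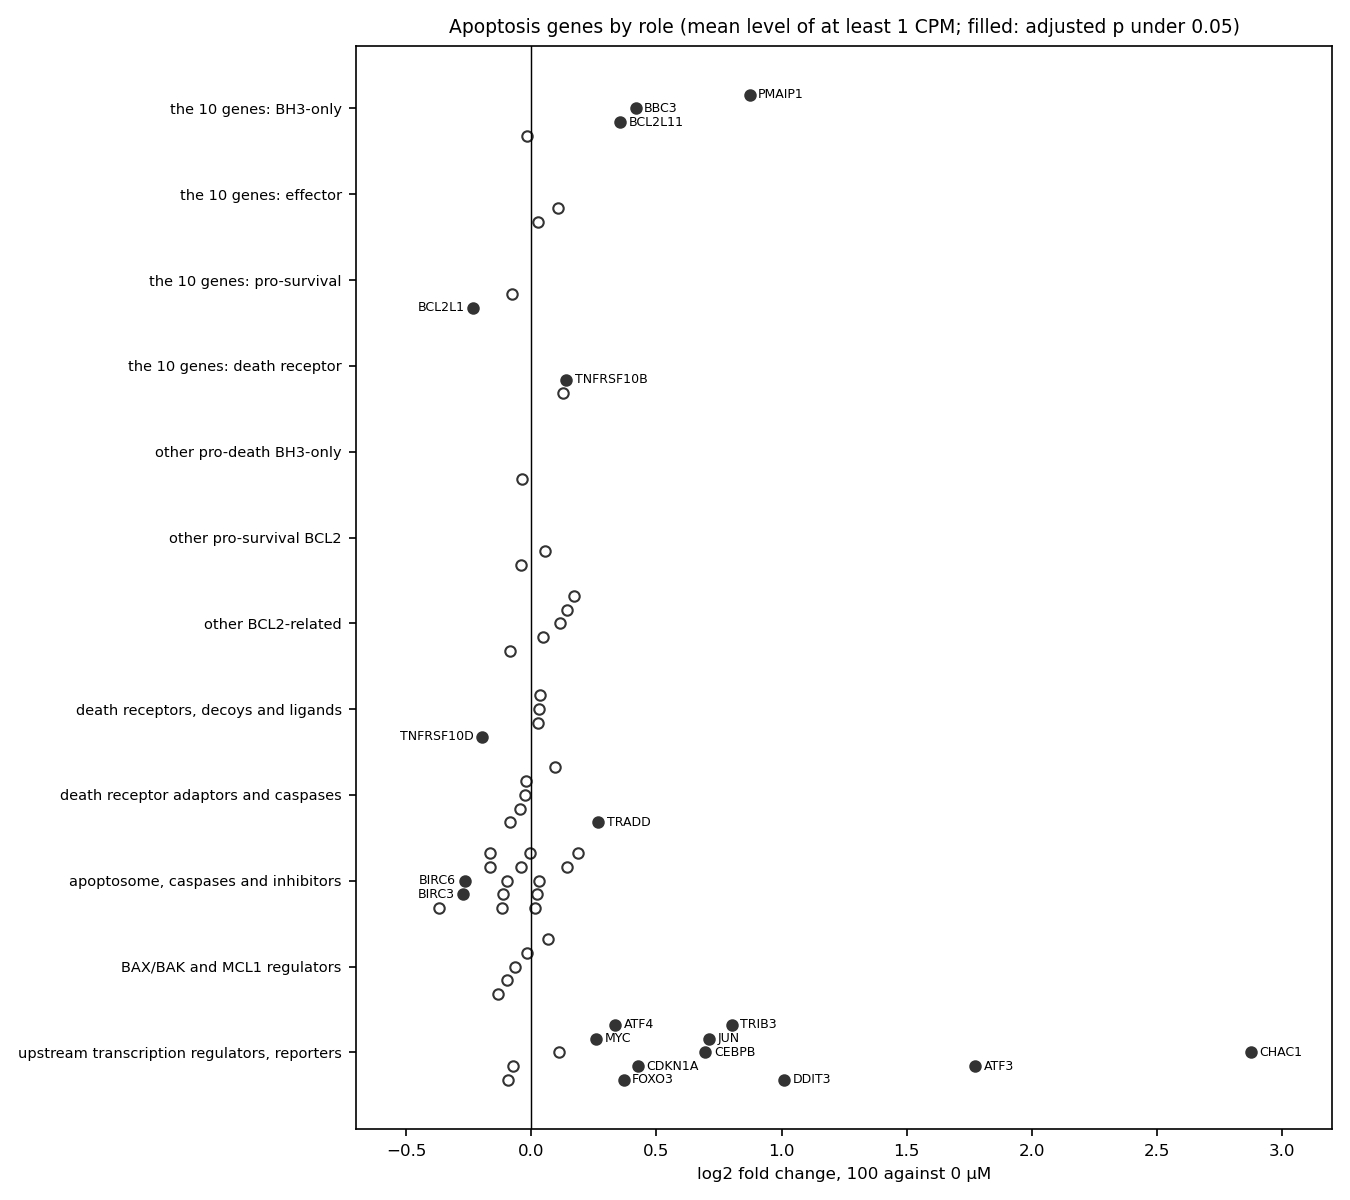
Log2 fold change at 100 against 0 µM (horizontal axis) of the 10 genes and of 51 of the other listed genes, chosen from those with a mean level of at least 1 CPM, in rows by role (vertical spread within a row has no meaning), filled and named where the adjusted p was under 0.05. Filled points lie right of 0 among BH3-only members and upstream regulators, up to 2.88 for CHAC1, while most rows of other apoptosis genes hold open points near 0.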

How the data were processed

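Gene counts and FPKM of 21 libraries were used as deposited. The deposited count table holds raw whole-number counts per gene, and the deposited FPKM table equals those counts per kilobase of 1 gene length and per 1000000 of a library constant, which was 0.948 to 1.00 times the library's total count. HISAT2, DESeq2 and GRCh38 are named, with no role, in the submitters' processing notes; the sources used here do not state the counter, strand setting or annotation release. All 58735 gene IDs were found in GENCODE 29, 58724 with the same start and end.

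Counts were filtered with filterByExpr, which left 16196 genes, normalized by TMM and fitted with edgeR 4.0.16 (R 4.3.3; glmQLFit, robust; 1 coefficient per dose; 14 residual degrees of freedom). Contrasts were tested with glmQLFTest and adjusted by Benjamini-Hochberg over all genes tested at 0.05. CPM are TMM-scaled, except for marker sums, and log2 fold changes are edgeR's, computed from the deposited counts. Libraries of a group differed by more than counting noise (21 pairs, chi-square over its degrees of freedom 2.61 to 11.6), so none was merged. Promoters were searched in Python 3.11.15, and figures were drawn with matplotlib 3.10.9.

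The members, gene lists and rules were chosen with earlier results of these data known. Named were all members, each listed gene called at 100 µM or across the 7 groups, a fixed set of key apoptosis genes and regulators, and for each member called across the 7 groups the 5 genes most like it among those whose mean log2 CPM reached 1. DIABLO had 2 rows, and that with more reads was used. Alternatives were DESeq2 1.42.0, its size factors, limma 3.58.1 on log2(FPKM + 1) and log2(FPKM + 0.1) of the deposited FPKM, other filters, a gene length offset, a replicate block, only the 6 libraries compared, each library left out, and a fit that was not robust. Some listed genes are counted in their lists and are not reported here by name. No comparison between members of the list was tested, and no sequence was printed for the receptor genes.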

Additional observations from a re-analysis of the deposited data

How the results depend on the processing

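Across 31 alternatives PMAIP1 was called at 100 µM in all, with a log2 fold change of 0.78 to 0.93 and an adjusted p of at most 1.01e-06 (edgeR, DESeq2 or limma). The counts at 10 µM and at the 4 lower doses were 0 in every alternative. The difference of the role medians at 100 µM stayed between 0.26 and 0.32. With 1 library left out in turn, the members called at 100 µM numbered 2 to 6 in place of 5, across the 7 groups 2 to 4 in place of 4, across the treated doses 2 to 4 in place of 3, by slope 2 to 4 in place of 4, at 100 against 10 µM 1 to 2 in place of 2, and the other apoptosis genes at 100 µM 2 to 5 in place of 4. Across the 7 groups the count was 2, PMAIP1 and BCL2L1, with limma on either FPKM scale. It was also 2 in the fit that was not robust, an alternative added after seeing the data. The robust setting of the main fit was itself adopted after seeing the data. It gave the genome-wide call count of an earlier account of the whole series. By slope the count of members was also 2 with limma on either scale. DESeq2 called 5 across the treated doses. Without a filter on low counts 1 member, PMAIP1, was called at 100 against 10 µM. The cause of these shifts was not tested.

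The replicate numbers did not pair the samples: over 63 same-numbered pairs of libraries the correlation of deviations from the group means was -0.18 to 0.16, with 5 over 0.1, and 7 of 21 libraries correlated best with their own number. With the number as a replicate block, 2 members, PMAIP1 and BCL2L1, were called across the 7 groups in place of 4, and 5 at 100 µM as without it.

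Depth limits BBC3 most, at 145 to 237 reads per library, where counting alone gives a coefficient of variation of 0.0739 in the median library, and MCL1 least, at 0.00949.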
